A study of Homo sapiens with 5 samples.

Results

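The genes followed here are 10 guidance cues and receptors known for the migration of gonadotropin-releasing hormone (GnRH) neurons, chosen by symbol. They are the ligands SEMA3A, SEMA3C, SEMA4D and CXCL12 and the receptors NRP1, NRP2, PLXNA1, PLXNB1, CXCR4 and ACKR3, which are 10 of the 33538 genes listed for D22, D24 and D26 and of the 36601 listed for D0 to D10. All 10 were measured in each of 8 single-cell RNA-seq data sets, called libraries here, made from WA09, a human embryonic stem cell line. The 5 of D0 to D10 were separated by cell tags from 1 pooled sample. D0 were undifferentiated cells. D5_dSMADi and D10_dSMADi had 5 and 10 days of dual SMAD inhibition (dSMADi) by dorsomorphin, which blocks BMP receptors, and SB431542, which blocks activin and TGF-β receptors. D5_XAV939 and D10_XAV939 had the same with XAV939, a tankyrase inhibitor that lowers WNT signalling, at 10 μM. D22, D24 and D26 had dSMADi without XAV939, then FGF8, then the Notch inhibitor DAPT. These are cultures of 1 cell line, so the cells that GnRH neurons pass in an embryo, such as nasal mesenchyme, were not added. Each condition was 1 library with no replicate, so no difference was tested, and every interval given is a 95% interval that covers counting error only.

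GnRH neurons set the release of the pituitary hormones that drive reproduction, and in the embryo they must travel a long way from their birthplace outside the brain, steered by secreted and membrane-bound cues. Class 3 semaphorins are secreted proteins that bind neuropilins (NRP1, NRP2), which signal through a class A plexin such as PLXNA1, and they turn or attract axons and migrating cells. SEMA4D is a membrane-bound semaphorin that binds PLXNB1 directly. CXCL12 is a chemokine of the nasal mesenchyme that draws cells bearing the receptor CXCR4, while ACKR3 binds CXCL12 without the usual G-protein signal and removes it.

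The results below turn most on SEMA3C, which stood high in the cells rich in GNRH1, and on CXCR4, which was lower with XAV939 and stood high in a small group of other cells. The 250 bases before 1 annotated start of each are shown as context for these 2 genes. They are from RefSeq on GRCh38.p14, both on the minus strand and 5′ to 3′, with TATAAA on either strand in capitals. The first is chr7:80922390-80922639 and the second chr2:136118150-136118399, and neither holds an exon of its own gene.
SEMA3C: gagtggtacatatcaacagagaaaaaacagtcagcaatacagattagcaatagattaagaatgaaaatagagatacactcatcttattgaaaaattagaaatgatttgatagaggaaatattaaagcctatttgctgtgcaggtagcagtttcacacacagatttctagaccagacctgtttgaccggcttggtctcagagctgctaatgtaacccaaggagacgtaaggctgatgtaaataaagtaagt
CXCR4: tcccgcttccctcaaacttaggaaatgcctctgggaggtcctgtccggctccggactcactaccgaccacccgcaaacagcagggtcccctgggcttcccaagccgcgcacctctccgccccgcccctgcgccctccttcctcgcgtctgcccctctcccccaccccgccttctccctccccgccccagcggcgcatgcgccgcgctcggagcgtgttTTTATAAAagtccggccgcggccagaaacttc

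The SEMA3C window had 36.4% G and C and 2 CG dinucleotides, and the CXCR4 window 68.0% and 24. These values hold for the starts shown, since the window of another SEMA3C start had 77.6% and 39, and those of 2 other CXCR4 starts 55.6% and 12, and 51.6% and 8. The CXCR4 window holds TATAAA on both strands at overlapping places, as 10.7% of all 35116 windows of this length do on at least 1 strand. Of the 10 genes, 7 matched the table, with 11 windows. TAATTA, the core of many homeodomain sites, was in 0 of the 11 and in 4.35% of all windows. CTTTGA, the core of TCF and LEF sites, was in 2 of the 11, of CXCL12 and PLXNA1, and in 11.2% of all. A match of these letters is a description and not a bound site.

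Between 1009 and 11056 cells were kept in a library, with a median of 7180 to 69455 unique molecular identifiers (UMIs) in a cell and 58073098 to 130440502 UMIs in all. Levels are counts-per-million values (CPM), for which the UMIs of a gene were summed over cells and divided by all UMIs of those cells. Reads come from the 3′ end and are not scaled to gene length, so levels are compared between samples and not between genes. The cells of the 5 conditions of D0 to D10 were tagged and pooled in 1 droplet run. D22, D24 and D26 were made apart with another dissociation and an annotation of fewer genes. The early and the late levels thus stand side by side and no ratio is given between them. The sums of markers followed the labels. The 5 pluripotency markers summed to 2715 CPM at D0 and 5.20 CPM at D26. The 5 neuron markers summed to 238 CPM at D0 and 10496 CPM at D26. Of these, TUBB3 went the other way, with 204 CPM at D0, most of the sum there, and 49.4 CPM at D26. STMN2, DCX, MAP2 and ELAVL4 were higher at D26, and STMN2 made up most of the D26 sum. Mesenchyme and meninges markers are of a cell type known to make CXCL12. They summed to 34.8 CPM at D0 and to 12.9 to 42.9 CPM at D5 and D10, highest in D10_dSMADi. At D22 to D26 they summed to 0.271 to 5.21 CPM. Markers of endothelium summed to 1.21 to 11.1 CPM there and those of blood and microglia to 0.0713 to 0.445 CPM.

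Of the ligands, SEMA3A (ENSG00000075213, chr7:83955777-84492724 of GRCh38, minus strand) was at 29.4 CPM at D0, 54.6 CPM in D5_dSMADi, 40.7 CPM in D5_XAV939, 45.1 CPM in D10_dSMADi and 59.8 CPM in D10_XAV939. At D22, D24 and D26 it was at 8.84, 8.04 and 17.3 CPM. It was thus present at every stage, and only the D22 and D24 levels had intervals that overlap among neighbours in the order of levels.

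SEMA3C (ENSG00000075223, chr7:80742538-80922359, minus strand) was at 0.138 to 0.546 CPM in the 5 early libraries and at 0.169 CPM at D22, which rest on 10 to 43 UMIs each. It was at 3.76 CPM at D24 (264 UMIs) and 13.3 CPM at D26 (1326 UMIs). SEMA3C was therefore low through D22, with D10_dSMADi (43 UMIs) above the other early libraries, and well measured at D24 and D26.

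SEMA4D (ENSG00000187764, chr9:89360787-89498130, minus strand) was at 18.4 CPM at D0, between 11.0 and 12.4 CPM in the 4 libraries of D5 and D10, and at 6.21, 9.41 and 20.9 CPM at D22, D24 and D26. The intervals of neighbouring levels among the 4 libraries of D5 and D10 overlap.

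CXCL12 (ENSG00000107562, chr10:44370165-44386493, minus strand) was at 28.5 CPM at D0, with 2165 UMIs. In the other 7 libraries it was at 0.261 to 0.724 CPM, with 19 to 57 UMIs. The ligand of the chemokine pair was thus high in the undifferentiated cells alone among these libraries, and its levels in the other 7 overlap from each to the next.

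Of the receptors, the co-receptor NRP1 (ENSG00000099250, chr10:33177492-33336262, minus strand) was at 0.369 CPM at D0, 2.26 CPM in D5_dSMADi, 2.09 CPM in D5_XAV939, 4.34 CPM in D10_dSMADi and 7.68 CPM in D10_XAV939. It was at 60.2, 87.8 and 126 CPM at D22, D24 and D26. Its level was higher at each later day within the tagged pool and within D22 to D26, and only the D5 libraries had overlapping intervals.

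NRP2 (ENSG00000118257, chr2:205681990-205798133, plus strand), the other neuropilin, took another course. It was at 37.1 CPM at D0, 67.5 CPM in D5_dSMADi, 70.9 CPM in D5_XAV939, 18.0 CPM in D10_dSMADi and 16.0 CPM in D10_XAV939, and at 15.7, 53.2 and 49.7 CPM at D22, D24 and D26. Within the tagged pool it was high at D5 and low at D10, and within the libraries made apart it was low at D22 and high at D24.

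The plexin PLXNA1 (ENSG00000114554, chr3:126982693-127037389, plus strand) was at 12.4 to 16.2 CPM in the 5 early libraries and at 81.4, 45.8 and 49.0 CPM at D22, D24 and D26. PLXNB1 (ENSG00000164050, chr3:48403854-48430086, minus strand), the receptor of SEMA4D, had the narrowest range, from 7.24 CPM in D5_dSMADi to 15.9 CPM at D22.

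CXCR4 (ENSG00000121966, chr2:136114349-136119177, minus strand) was at 0.764 CPM at D0, 12.1 CPM in D5_dSMADi, 4.01 CPM in D5_XAV939, 29.6 CPM in D10_dSMADi and 14.1 CPM in D10_XAV939. It was at 1.57, 2.28 and 1.95 CPM at D22, D24 and D26, with 205, 160 and 194 UMIs. CXCR4 was thus highest at D10, in the library without XAV939.

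ACKR3 (ENSG00000144476, chr2:236567787-236582354, plus strand) was at 0.0922 to 0.343 CPM in the early libraries, which rest on 7 to 27 UMIs. It was at 9.27, 1.74 and 2.63 CPM at D22, D24 and D26, and D22 alone held 1209 UMIs.

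**Figure D1:**
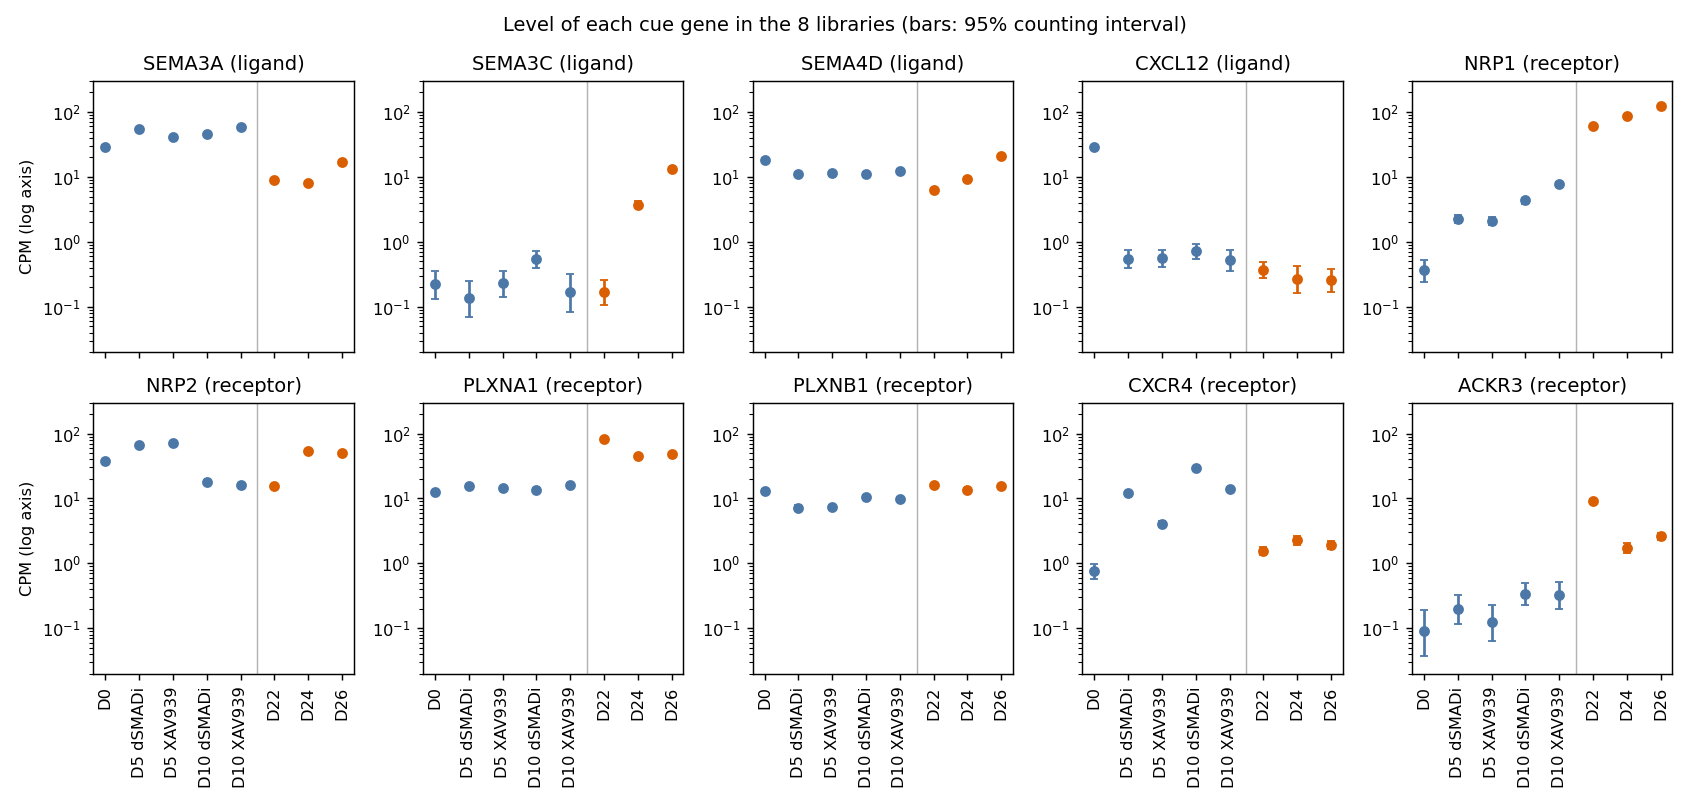
Level of each of the 10 genes in CPM on a log axis, by library, with 95% counting intervals (blue, tagged pool; orange, libraries made apart). NRP1 is at 0.369 CPM at D0 and at 126 CPM at D26, CXCL12 stands at 28.5 CPM at D0 alone, and CXCR4 peaks at 29.6 CPM in D10_dSMADi.

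To ask which cues the GnRH neurons themselves carry, cells with a GNRH1 level of at least 3000 CPM in the cell (GNRH1-high) were set against all other kept cells of the same library. There were 345 GNRH1-high cells at D24, which was 3.79% (3.41 to 4.20%), and 999 at D26, which was 9.04% (8.51 to 9.59%). D22 had 6, too few to compare. At D24, 18 cells lay at 2000 to 3000 CPM, just under the limit, and 16 at 3000 to 4000. At D26 these were 73 and 55. The median UMI count was 8247 in GNRH1-high and 7149.5 in other cells at D24, and 9729 and 8401 at D26.

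Among the ligands, SEMA3C stood far above the rest. At D24 it was at 60.2 CPM in GNRH1-high cells (184 UMIs) and 1.19 CPM in other cells (80 UMIs), 50.5-fold higher, a log2 ratio of 5.66 (5.27 to 6.05). At D26 it was at 88.7 CPM (921 UMIs) and 4.55 CPM (405 UMIs), 19.5-fold higher, a log2 ratio of 4.29 (4.12 to 4.46). GNRH1-high cells were a small share of each library and held most of its SEMA3C UMIs.

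SEMA4D was at 19.3 CPM in GNRH1-high and 8.96 CPM in other cells at D24, a log2 ratio of 1.11 (0.70 to 1.49). The D26 levels were 28.0 and 20.1 CPM, which is a log2 ratio of 0.48 (0.30 to 0.66). SEMA3A, the best known repellent of the class, was at 5.23 and 8.17 CPM at D24, a log2 ratio of -0.64 whose interval includes no difference (-1.46 to 0.07). The D26 levels were 21.5 and 16.8 CPM, which is a log2 ratio of 0.35 (0.14 to 0.56).

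CXCL12 had 0 UMIs in GNRH1-high cells at both days, against 19 in other cells at D24 (0.283 CPM) and 26 at D26 (0.292 CPM). At this depth a count of 0 allows up to 0.981 CPM at D24 and 0.289 CPM at D26, taken as 3 counts. The D24 limit is above the level of other cells, so a lower level was not detectable on that day. The D26 limit is about the level of other cells, and no difference is read there either.

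Among the receptors, NRP2 differed most at D24, where it was at 15.4 CPM in GNRH1-high cells (47 UMIs) and 54.9 CPM in other cells, 3.57-fold lower, a log2 ratio of -1.84 (-2.28 to -1.42). At D26 it was at 43.7 and 50.4 CPM, which is a log2 ratio of -0.20 (-0.35 to -0.06). The gap between the groups was thus much narrower at D26, and this change between days was not tested.

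NRP1 was at 60.2 CPM in GNRH1-high and 89.1 CPM in other cells at D24, a log2 ratio of -0.57 (-0.79 to -0.35), and at 113 and 127 CPM at D26, a log2 ratio of -0.17 (-0.25 to -0.08). PLXNA1 was at 72.6 and 44.6 CPM at D24, a log2 ratio of 0.70 (0.50 to 0.90), and at 70.0 and 46.5 CPM at D26, a log2 ratio of 0.59 (0.47 to 0.70). PLXNB1 was at 8.83 and 13.6 CPM at D24, a log2 ratio of -0.63 (-1.24 to -0.08), and at 12.1 and 15.7 CPM at D26, a log2 ratio of -0.37 (-0.64 to -0.10). Against all other cells, GNRH1-high cells thus had lower values of both neuropilins and PLXNB1 and a higher value of PLXNA1 at both days. Of these only NRP2 at D24 reached 2-fold. The median log2 ratio of all genes was -0.14 at D24 and -0.09 at D26. It lies within the intervals of NRP1 and NRP2 at D26 and of PLXNB1 at D24, so no lower level is shown there on that scale. Against other cells past the DLX gate described below, NRP1 came to 0.19 at both days and PLXNA1 to -0.13 at D26.

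The chemokine receptors had few UMIs in GNRH1-high cells. CXCR4 had 4 at D24 (1.31 CPM, against 2.33 CPM in other cells) and 4 at D26 (0.385 CPM, against 2.13 CPM), with log2 ratios of -0.83 (-2.72 to 0.55) and -2.47 (-4.36 to -1.09). The 4 UMIs at D26 lay in 2 cells, while the interval takes UMIs as independent and so is too narrow. ACKR3 had 3 at D24 (0.981 CPM, against 1.77 CPM) and 23 at D26 (2.21 CPM, against 2.68 CPM), and neither interval excludes equal levels.

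A difference of at least 2-fold was counted among genes at 5 CPM or more in 1 of the 2 groups, which 7 of the 10 genes passed at each day. The 3 left out were CXCL12, CXCR4 and ACKR3. At D24, 2 of the 7 were at least 2-fold higher in GNRH1-high cells (SEMA3C and SEMA4D), against 2.51% of all 9670 genes that passed, and 1 was at least 2-fold lower (NRP2), against 6.36%. At D26, 1 of the 7 was higher (SEMA3C), against 2.22% of 10162 genes, and 0 were lower, against 3.19%. SEMA3C passed the filter at both days only through the group where it is high, so its place among the 7 and its call rest on the same value and add nothing to its levels. The median log2 ratio of all genes was -0.14 at D24 and -0.09 at D26.

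**Figure D2:**
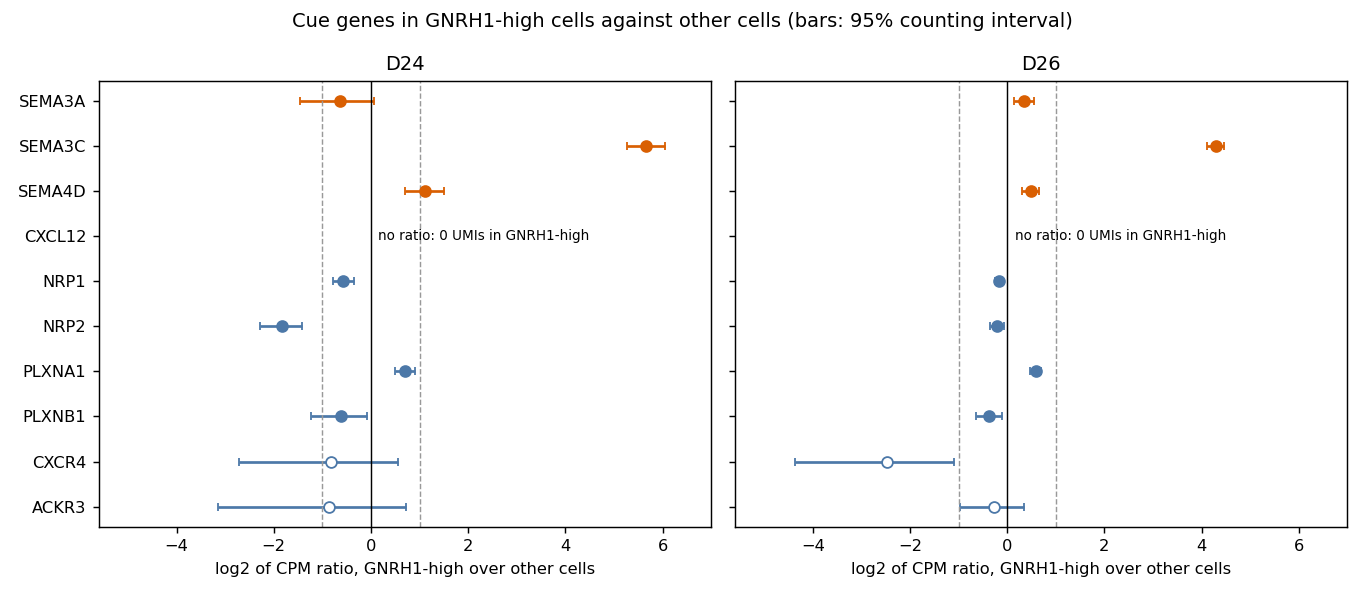
Log2 ratio of CPM in GNRH1-high over other cells for each gene at D24 and D26, with 95% counting intervals (orange, ligands; blue, receptors; open, under the filter of 5 CPM; dashed, 2-fold). SEMA3C lies at 5.66 and 4.29, and NRP2 moves from -1.84 at D24 to -0.20 at D26.

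The level of SEMA3C was also followed over the range of GNRH1. At D24 it was at 0.777 CPM in cells without a GNRH1 UMI, 1.97 CPM in cells with up to 300 CPM of it, 14.1 CPM at 300 to 1000, 18.6 CPM at 1000 to 3000, 22.9 CPM at 3000 to 10000, 66.9 CPM at 10000 to 30000 and 79.7 CPM above. At D26 it was at 2.48, 3.86, 17.6, 35.2, 64.1, 90.5 and 102 CPM in the same order. The value of SEMA3C was higher in each next range of GNRH1 at both days, also below the limit of 3000, though some neighbours have overlapping intervals (from 300 to 10000 and the top 2 ranges at D24, the top 2 at D26). The share of cells past the DLX gate described next moved in the same direction, from 1.51% to 85.2% at D24 and from 4.21% to 82.7% at D26.

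NRP2 at D24 was at 52.2 to 60.3 CPM in the 4 ranges below 3000 CPM of GNRH1, and at 20.2, 17.5 and 8.50 CPM in the 3 ranges above it. At D26 it stayed between 35.8 and 52.7 CPM over all 7 ranges. PLXNA1 at D24 was at 44.7 CPM without GNRH1, 37.3 CPM at 1000 to 3000 and 59.3, 69.1 and 88.2 CPM in the 3 ranges above. At D26 it was at 44.7 CPM without GNRH1, 57.0 CPM at 300 to 1000 and 65.3 to 79.2 CPM in the 4 ranges above 1000. At D26 the level in the range just under the limit of 3000 was thus within those above it. The ranges held 61 to 7797 cells.

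**Figure D3:**
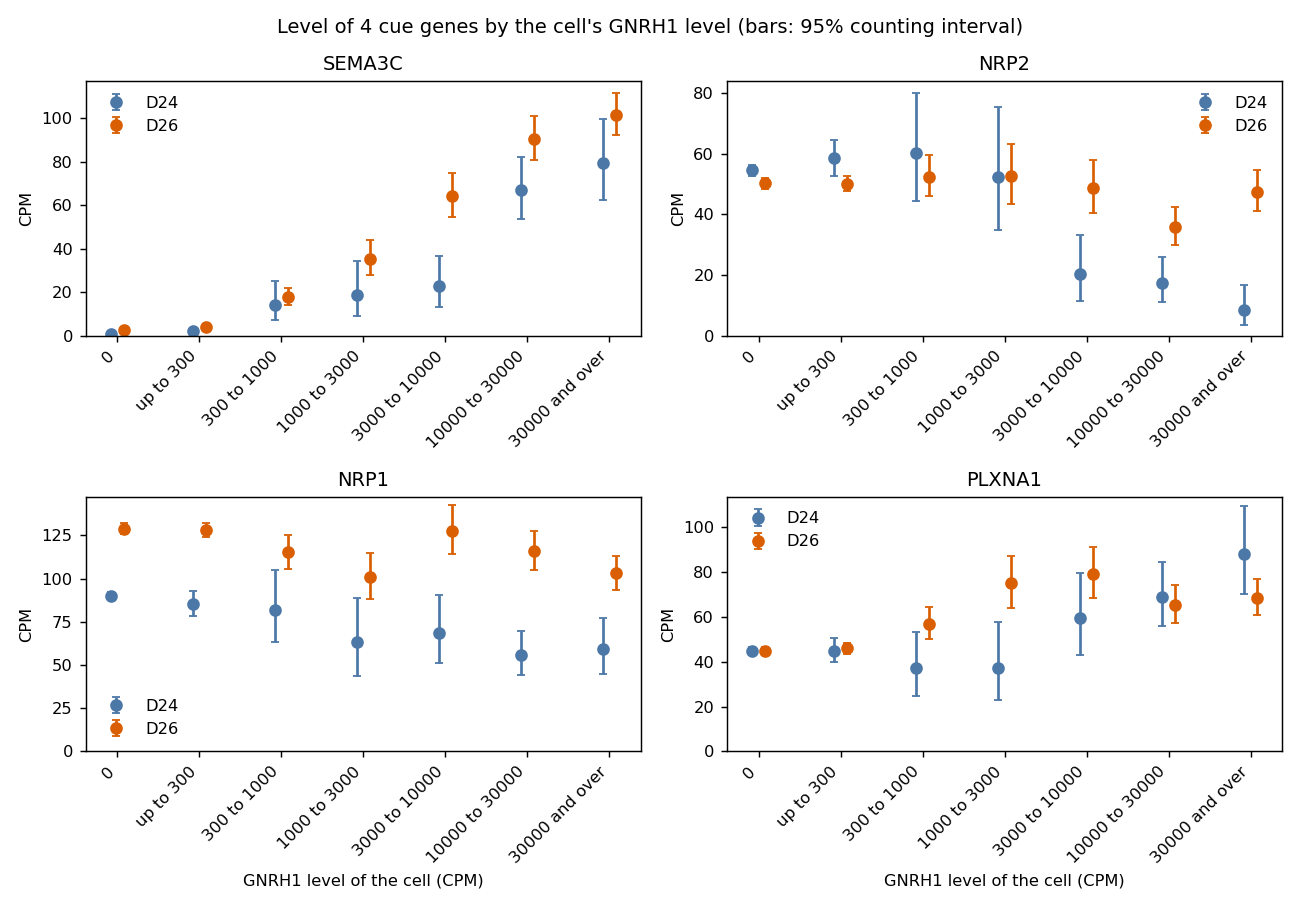
CPM of SEMA3C, NRP2, NRP1 and PLXNA1 in cells grouped by their GNRH1 level in CPM, at D24 (blue) and D26 (orange), with 95% counting intervals. SEMA3C reaches 79.7 and 102 CPM in the top range, and NRP2 is at 8.50 CPM there at D24 and 47.5 CPM at D26.

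GNRH1-high cells belong to a GABAergic lineage marked by DLX genes, so each cell was also placed by a gate, which is at least 500 CPM and at least 2 UMIs of a marker list summed. The DLX list holds DLX1, DLX2, DLX5, DLX6, DLX6-AS1, GAD2 and SLC32A1, and the Glut list PPP1R17, TBR1, LHX1, LHX5, SLC17A6 and GABRA2, which mark the glutamatergic neurons of this culture. Of GNRH1-high cells, 80.6% at D24 and 80.2% at D26 passed the DLX gate, against 2.20% and 7.74% of other cells. The Glut gate was passed by 7.83% and 15.1% of GNRH1-high and by 75.2% and 86.5% of other cells.

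SEMA3C was also present at D24 and D26 in the cells that passed the DLX gate alone and were not GNRH1-high. In these it was at 1.67 CPM (0.672 to 3.45) in 350 cells at D22, with 7 UMIs, 31.0 CPM (22.6 to 41.5) in 184 cells at D24 and 42.4 CPM (37.2 to 48.0) in 676 cells at D26. Cells past the Glut gate alone were at 0.158 CPM (6572 cells) and 0.878 CPM (8601 cells). Cells past no gate were between these groups, at 1.83 CPM at D24 (26 UMIs) and 8.98 CPM at D26 (47 UMIs). After thinning each cell to 1500 UMIs, 7.83% of GNRH1-high cells had a SEMA3C UMI at D24 and 11.1% at D26, against 3.80% and 6.21% of the DLX group and 0.0304% and 0.163% of the Glut group, which had median depths of 7174 and 8405 UMIs. Without thinning these shares were 36.8% and 47.8% of GNRH1-high cells, 17.9% and 21.6% of the DLX group and 0.122% and 0.733% of the Glut group. At D24 and D26 the ligand was thus found in DLX-gated cells and was highest where GNRH1 was high, while at D22 the DLX group held few UMIs of it.

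Set against other cells past the DLX gate in place of all other cells, SEMA3C had a far smaller log2 ratio, of 1.03 at D24 and 1.19 at D26. The D24 value is close to the 2-fold line. SEMA4D turned to -0.68 at D24 and -0.08 at D26. NRP1 came to 0.19 at both days, PLXNA1 to -0.13 at D26 and NRP2 to -0.97 at D24. Of the genes past the filter of 5 CPM described above, SEMA3C was then the sole one of the 10 at least 2-fold higher at either day, as were 253 of all 9608 genes at D24 and 35 of 10028 at D26. The sole one lower was SEMA3A at D24, with a log2 ratio of -1.43 on 16 UMIs in GNRH1-high cells, while NRP2 was just short of 2-fold. At D26 SEMA3A ranged from 0.22 to 0.44 over the alternatives. Of all genes, 359 were lower at D24. At D26 it was 63 of all genes and 0 of the 10.

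The DLX group had 53.3 CPM of NRP2 at D26 and 28.9 CPM at D24, and the Glut group 50.5 and 56.0 CPM. NRP1 was higher in the Glut than in the DLX group at each day, at 89.5 and 54.5 CPM at D22, 96.5 and 50.3 CPM at D24 and 134 and 90.3 CPM at D26. PLXNA1 was higher in the Glut group at D22 (68.8 against 46.6 CPM) and higher in the DLX group at D26 (81.6 against 44.2 CPM). Cells past no gate, which were 6088 of 9523 at D22, held PLXNA1 at 99.8 CPM on that day.

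**Figure D4:**
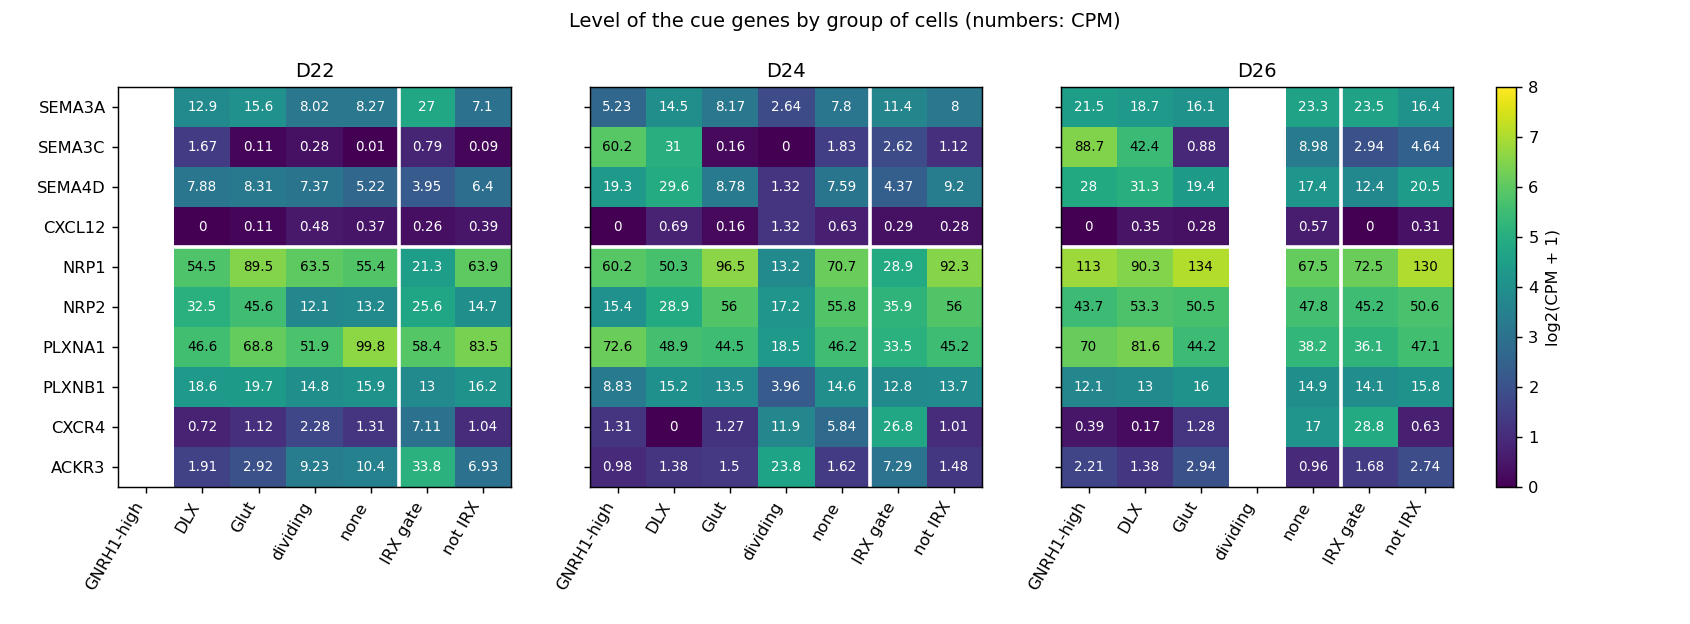
Level of the 10 genes by group of cells at D22, D24 and D26, with CPM printed and log2(CPM + 1) as colour. Columns are GNRH1-high, other cells by gate (DLX alone, Glut alone, dividing, none), and, to the right of the white line, the same other cells split by the IRX gate. Groups under 20 cells are blank. CXCR4 reaches 26.8 and 28.8 CPM past the IRX gate at D24 and D26.

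CXCR4 and ACKR3 were placed in a further group, which was chosen after their values had been seen. The IRX list holds IRX1, IRX2, IRX3, IRX5, NR2F1 and CRABP1, markers of a group of cells that the study names IRX. In cells that were not GNRH1-high, CRABP1 and NR2F1 made up most of the summed level of this list at D22, D24 and D26. A cell can thus pass on these genes without a UMI of an IRX gene, and how many did was not counted. The name IRX-gated refers to the list and does not show that a cell expressed an IRX gene. Leaving out GNRH1-high cells, 802 cells passed this gate at D22 (8.43%), 454 at D24 (5.18%) and 538 at D26 (5.35%). CXCR4 was at 7.11 CPM (5.64 to 8.83) past the gate and 1.04 CPM (0.867 to 1.24) outside it at D22. It was at 26.8 CPM (21.6 to 32.9) and 1.01 CPM (0.774 to 1.28) at D24, and at 28.8 CPM (24.2 to 34.0) and 0.629 CPM (0.471 to 0.822) at D26. IRX-gated cells thus held 39.5%, 59.0% and 72.1% of the CXCR4 UMIs of the cells that were not GNRH1-high.

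After thinning, 3.30% of IRX-gated cells had a CXCR4 UMI at D24 and 4.65% at D26, against 0.169% and 0.0420% of the other cells, with median depths of 6936 and 7160 UMIs at D24 and 8160 and 8406 at D26. Without thinning these shares were 15.4% and 12.3%, against 0.686% and 0.410%. The DLX group had 0 CXCR4 UMIs at D24 in 184 cells, which allows up to 2.07 CPM, above the level outside the IRX gate, and 1 UMI at D26 in 676 cells. GNRH1-high cells were rarely past the gate, with 2 of 345 at D24 and 9 of 999 at D26. Set against other cells not past the IRX gate, the log2 ratio of CXCR4 in GNRH1-high cells was 0.38 at D24 and -0.71 at D26, in place of -0.83 and -2.47. These ratios rest on 4 UMIs in GNRH1-high cells at each day, which lay in 2 cells at D26, so no difference is read from them.

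ACKR3 was at 33.8 CPM (30.5 to 37.3) in IRX-gated cells and 6.93 CPM (6.46 to 7.41) outside at D22, and at 7.29 CPM (4.72 to 10.8) and 1.48 CPM (1.19 to 1.81) at D24. At D26 it was at 1.68 CPM (0.725 to 3.31) and 2.74 CPM (2.40 to 3.12). Both chemokine receptors were thus higher past the IRX gate than outside it at D22 and D24, and CXCR4 alone at D26. Most ACKR3 UMIs lay outside the gate, which held 31.8% of them at D22 and 21.0% at D24. ACKR3 was also not particular to these cells. At D24 the 71 dividing cells had it at 23.8 CPM (14.1 to 37.6, 18 UMIs) and CXCR4 at 11.9 CPM (5.44 to 22.6, 9 UMIs). The overlap of the 2 gates was not counted. SEMA3A was at 27.0 CPM past the IRX gate and 7.10 CPM outside at D22, 11.4 and 8.00 CPM at D24 and 23.5 and 16.4 CPM at D26. The D24 intervals overlap. NRP1 was lower in the IRX group, at 21.3 against 63.9 CPM at D22, 28.9 against 92.3 CPM at D24 and 72.5 against 130 CPM at D26.

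The comparison of XAV939 with dSMADi alone asks how lower WNT signalling in the first 10 days bears on these genes. CXCR4 was at 4.01 CPM with XAV939 and 12.1 CPM without at D5, 3.02-fold lower, a log2 ratio of -1.59 (-1.78 to -1.42). At D10 it was at 14.1 and 29.6 CPM, 2.11-fold lower, a log2 ratio of -1.08 (-1.19 to -0.96). After thinning each cell to 10000 UMIs, 3.30% and 11.7% of cells had a CXCR4 UMI at D5 and 11.8% and 22.9% at D10, with D0 at 0.595%. The median depth was 26630 UMIs with XAV939 and 28789 without at D5, and 24290.5 and 31112.5 at D10.

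CXCR4 was the sole 1 of 6 genes past the filter that was at least 2-fold lower at D5, against 0.836% of 10053 genes, and the sole 1 of 7 at D10, against 1.84% of 10595. At D5 it passed only through the library without XAV939, where it is high. None of the 10 was at least 2-fold higher, against 0.776% and 1.59% of all genes.

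The other receptors moved less. NRP1 was at 7.68 CPM with and 4.34 CPM without XAV939 at D10, a log2 ratio of 0.82 (0.62 to 1.03), and at 2.09 and 2.26 CPM at D5, where the interval includes equal levels. NRP2 had log2 ratios of 0.07 at D5 and -0.17 at D10, PLXNA1 of -0.13 and 0.24, and PLXNB1 of 0.02 and -0.12. Of the ligands, SEMA3A was lower with XAV939 at D5, at 40.7 against 54.6 CPM (log2 ratio -0.43, -0.49 to -0.36), and higher at D10, at 59.8 against 45.1 CPM (log2 ratio 0.41, 0.34 to 0.47). SEMA4D had log2 ratios of 0.08 and 0.17. SEMA3C and CXCL12 were under 1 CPM in all 4 libraries and so under the filter. SEMA3C was at 0.172 CPM with XAV939 (10 UMIs) and 0.546 CPM without (43 UMIs) at D10, a log2 ratio of -1.66 (-2.82 to -0.65), and at 0.231 and 0.138 CPM (20 and 11 UMIs) at D5, where the interval includes equal levels. Both intervals of CXCL12 include equal levels. Each was 1 tagged culture, so culture and treatment cannot be told apart.

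Some cells at D10 already passed a gate of the neuron genes STMN2 and DCX, chosen after their values had been seen. There were 71 with XAV939 (3.27%) and 17 without (0.704%). In the 71, NRP2 was at 46.0 CPM against 15.0 CPM in the rest of the library (log2 ratio 1.62, 1.27 to 1.95), and PLXNA1 at 51.7 against 15.1 CPM (1.77, 1.45 to 2.09). SEMA3A was at 15.2 against 61.2 CPM (-2.01, -2.62 to -1.47). In the 17 cells, PLXNA1 was at 56.9 against 13.5 CPM (20 UMIs, 2.07, 1.36 to 2.71). NRP2 was at 17.1 against 18.0 CPM in them (6 UMIs, -0.08, -1.52 to 1.05), an interval too wide to read equal levels. NRP1 was at 17.1 against 4.28 CPM in the 17 cells (6 UMIs, 1.99, 0.54 to 3.13) and at 7.30 against 7.69 CPM in the 71. The cells past this gate thus carried more PLXNA1 than the rest in both libraries. They are defined by the summed UMIs of STMN2 and DCX only, and other markers were not examined in them.

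Cells past a gate of NEUROD4 and NHLH1, genes of neuron precursors, also had more PLXNA1 at D22 and in D10_XAV939. In D10_XAV939 the overlap with the STMN2 and DCX cells above was not counted. PLXNA1 was at 129 CPM in 1807 gated cells of D22 and 71.5 CPM in the rest (log2 ratio 0.85, 0.79 to 0.91), and at 65.5 and 15.4 CPM in D10_XAV939, where 43 cells passed (2.09, 1.70 to 2.46). NRP2 was lower in those of D22, at 7.21 against 17.5 CPM, and higher in those of D10_XAV939, at 42.6 against 15.5 CPM. This gate too was chosen after the values had been seen.

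Between neighbouring days, each library is 1 culture, so day and library cannot be told apart. From D0 to D5_dSMADi, CXCR4 was 15.9-fold higher (log2 ratio 3.99, 3.61 to 4.40) and CXCL12 51.6-fold lower (log2 ratio -5.69, -6.16 to -5.26). These were the 1 higher and the 1 lower of 7 genes past the filter, against 9.06% and 18.3% of 10922 genes. Each passed only through the library where it is high, and 1 of 7 is near these shares, so the counts are no result about the genes. The ratios of the receptor and its ligand had opposite directions. NRP1, under the filter, went from 28 to 180 UMIs, a log2 ratio of 2.61 (2.03 to 3.24). Kept cells needed at least 30000 UMIs at D0 and 10000 at D5. Over the alternatives, which include no filter on cells, the log2 ratio of CXCR4 ranged from 3.91 to 4.11 and that of CXCL12 from -5.70 to -5.57.

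From D5_dSMADi to D10_dSMADi, CXCR4 was again higher, by a log2 ratio of 1.29 (1.18 to 1.40), and NRP2 3.76-fold lower (log2 ratio -1.91, -1.99 to -1.82). They were the 1 higher and the 1 lower of 6 genes, against 6.01% and 1.72% of 10496. From D22 to D24, NRP2 was 3.39-fold higher (log2 ratio 1.76, 1.68 to 1.84) and ACKR3 5.33-fold lower (log2 ratio -2.41, -2.69 to -2.14), 1 of 7 genes each way against 10.7% and 13.8% of 10437, which is again near the background. ACKR3 passed only through D22, where it is high. SEMA3C, under the filter at both days, went from 0.169 to 3.76 CPM, a log2 ratio of 4.48 (3.85 to 5.18). PLXNA1 was at 81.4 and 45.8 CPM, which is a log2 ratio of -0.83. In the same step cells past the Glut gate alone went from 745 (7.82%) to 6572 (72.2%), and the dividing group from 2332 of 9523 cells to 71 of 9107. NRP2 was at 45.6 CPM in the Glut group at D22 and 56.0 CPM at D24, and at D22 it was at 12.1 CPM in dividing cells and 13.2 CPM in cells past no gate. The part of these shares in the values was not tested.

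From D24 to D26 the 3 ligands that passed the filter were at least 2-fold higher, of 7 genes that passed, against 8.18% of 10171 genes, and 0 were lower, against 2.46%. SEMA3A had a log2 ratio of 1.11 (0.97 to 1.24), SEMA3C of 1.82 (1.63 to 2.02) and SEMA4D of 1.15 (1.03 to 1.28), and SEMA3C passed the filter only through D26. CXCL12, the ligand under the filter, was at 0.271 and 0.261 CPM (19 and 26 UMIs). The median log2 ratio of all genes was itself 0.35 here. Relative to it SEMA3C was at 1.48 and still past 2-fold, SEMA3A and SEMA4D were at 0.76 and 0.80, and PLXNA1 and PLXNB1 turned to -0.25 and -0.16. For SEMA3C, GNRH1-high cells went from 60.2 to 88.7 CPM and from 3.79% to 9.04% of cells over this step. Over the other steps the median was -0.12 (D0 to D5), 0.19 (D5 to D10) and -0.12 (D22 to D24).

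Of 74 other genes of these pathways, 43 passed the filter at D24 and 45 at D26 in the comparison of GNRH1-high with other cells. Of these, 1 was at least 2-fold higher and 1 lower at D24, against 2.51% and 6.36% of all genes, and 0 in either direction at D26, against 2.22% and 3.19%, so the counts are not above the background. The values of the pair at D24 are given as a description. The 1 higher was PLXNC1, a plexin that binds SEMA7A, at 12.8 against 6.27 CPM (39 and 421 UMIs, log2 ratio 1.02). The 1 lower was ITGB1, an integrin subunit, at 153 against 321 CPM (log2 ratio -1.07, -1.21 to -0.94). The 7 other semaphorins measured at D24 had a median log2 ratio of -0.21 and the 8 at D26 of 0.17. The 20 intracellular genes of semaphorin signalling had medians of -0.15 and 0.03, and the 9 chemokine and signalling genes of -0.09 and -0.002, beside -0.14 and -0.09 for all genes. None that passed was 2-fold apart at both days, and the rest of the 74 got no call.

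With XAV939, 2 of 41 such genes were at least 2-fold higher at D5 and 1 lower, against 0.776% and 0.836% of all genes, and 2 of 42 were higher at D10 and 0 lower, against 1.59% and 1.84%. SEMA5A, a transmembrane semaphorin, was among them at both days, at 18.6 against 6.60 CPM at D5 and 39.2 against 6.28 CPM at D10 (log2 ratio 2.64). The others were SEMA6D (1.02) and the small GTPase RND1 (-1.47) at D5, and CRMP1 (1.21), a mediator of semaphorin signals in neurons, at D10. From D22 to D24, 12 of 46 were higher and 3 lower, against 10.7% and 13.8% of all genes. From D24 to D26, 7 of 45 were higher and 0 lower, against 8.18% and 2.46%, with the median of all genes itself at 0.35 as given above and that of the 45 at 0.30. PLXNA2, another class A plexin, went from 42.6 to 3.85 and then 21.5 CPM over these 3 days.

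Over 18 groups of cells (the 5 early libraries and the gated groups of at least 100 cells at D22, D24 and D26), SEMA3C had the widest range of the ligands and NRP1 of the receptors on the log2(CPM + 5) scale. These groups span the pool and the libraries made apart, so the ranges served only to choose the 2 genes. Among 8782 genes, those with the most similar course to SEMA3C by Pearson's r were MEF2C (0.977), FGF3 (0.972) and KIF26B (0.957). Those closest to NRP1 were PAK3 (0.984), POU3F3 (0.981) and HAGH (0.980). The groups share libraries and depth, and differ in run, dissociation and annotation between early and late, so these values describe likeness in this culture only.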

How the data were processed

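The authors aligned reads to GRCh38 and deposited UMI counts per gene and cell barcode without normalization. The labels name Cell Ranger 3.1, and the file headers give 3.1.0 for D22 to D26 and 6.1.2 for the tagged pool. The authors also separated the tagged cells. In each tagged condition 95.1% to 95.6% of tag counts were of the tag given for it.

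Cells were kept by the limits of the study, which were 1500 UMIs, 1000 genes, under 20% mitochondrial UMIs and over 0.82 in complexity, the log of genes over the log of UMIs, at D22 to D26. They left 9523, 9107 and 11056 cells. For D0 the limits were 30000 UMIs and 5000 genes, and for D5 and D10 they were 10000 UMIs and 3000 genes. All of these early cells had to be under 10% mitochondrial UMIs. Complexity had to be over 0.78 at D5, and over 0.82 and under 0.9 at D10. For D0 the stated complexity limit of 0.85 left 1 cell and was not used, so 1009 were kept. D5 and D10 kept 2419, 2815, 2416 and 2168 cells of 2480, 2919, 2778 and 2638 barcodes, and every barcode of these 4 is counted as analysed by the study. Barcodes shared between libraries were 0 within the pool and at most 37 elsewhere.

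Summed counts were scaled to CPM with exact Poisson intervals, and ratios have intervals from the exact binomial split of UMIs. Intervals of shares of cells are those of Clopper and Pearson, and cells were thinned by a seeded random draw. Intervals take UMIs as independent. Genes with 3 UMIs or fewer in both groups got no ratio. Counts were simulated as Poisson draws for GNRH1-high against other cells. At D24 (9670 genes) the true ratio lay in the interval for 96.1% of changed and 95.7% of unchanged genes. At D26 (10162 genes) it did for 95.4% of each. The intervals assume such draws, so this checks the calculation and not the uneven spread of UMIs over cells. No clusters and no doublet caller were used, and cells past both gates or with the most UMIs were left out as alternatives.

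The 10 genes, the marker and pathway lists and the gates were chosen with earlier results of these data known. All 10 are named. Other pathway genes were to be named where they differed 2-fold in the same direction at both D24 and D26 with 20 CPM, which none did, so those named were chosen after their values were seen. The 3 genes most alike were taken for the ligand and the receptor with the widest range. Positions are those of GENCODE 44. RN7SL398P lies within NRP1 on its strand, and genes on the other strand overlap NRP1, NRP2 and SEMA4D. Strand in counting is not given in the sources used here. Python 3.11.15 was used with numpy, scipy and pandas.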

Additional observations from a re-analysis of the deposited data

Results flagged for a closer look

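For 3 genes the difference between XAV939 and dSMADi had opposite directions at D5 and D10, with both counting intervals clear of 0. The difference between the days was not tested, and each day is 1 tagged culture per condition. SEMA3A had a log2 ratio of -0.43 at D5 and 0.41 at D10. NRP2 had 0.069 and -0.17, and PLXNA1 had -0.13 and 0.24. The NRP2 and PLXNA1 values are well under 2-fold. The D5 value of NRP2 is close to the median of all genes in that comparison (0.049), and relative to it NRP2 was at 0.020, less than its counting error, so no opposite direction is shown for it on that scale.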

How the results depend on the processing

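Of the alternatives tried for the counts of genes at least 2-fold apart, 119 gave a count within 1.5 times the one reported and 9 did not. Without the filter on low values, the count of lower genes in GNRH1-high cells became 2 at D24 (with CXCL12) and 2 at D26 (CXCL12 and CXCR4), where CXCL12 counts through its 0 UMIs, which do not show a lower level at this depth, that of lower genes with XAV939 at D10 became 2 (with SEMA3C), and those of higher genes became 2 for D24 against D22 (with SEMA3C), 3 for D5_dSMADi against D0 (with NRP1 and ACKR3) and 2 for D10_dSMADi against D5_dSMADi (with SEMA3C). Of all genes, in the same order, 5168 of 23249, 3469 of 24157, 2355 of 27241, 3306 of 25729, 3740 of 27565 and 3819 of 27407 were then called, so these counts are read no further. Shifting the median of all genes to 0 gave 1 higher gene for D26 against D24 (297 of all 10171) and 2 for D5_dSMADi against D0 (1240 of 10922). Against other cells past the DLX gate, 1 gene was higher at D24 (SEMA3C), and the 1 lower gene was SEMA3A (-1.43) in place of NRP2 (-0.97). The same alternative turned SEMA4D to -0.68 and NRP1 to 0.19 at D24, and SEMA4D to -0.077, NRP1 to 0.19, PLXNA1 to -0.13 and CXCR4 to 1.52 (4 UMIs in GNRH1-high cells) at D26. The shift turned PLXNA1 to -0.25 and PLXNB1 to -0.16 for D26 against D24. Of the single ratios, 567 stayed within the counting interval of the reported value and 34 moved beyond it. Among these, ACKR3 in GNRH1-high cells at D26 came to 0.72 against the DLX gate, in place of -0.28, and SEMA4D for D10_dSMADi against D5_dSMADi to -0.18 with the shift, in place of 0.014, both from values whose intervals include 0. SEMA3C in GNRH1-high cells ranged from 1.03 to 8.41 at D24 and from 1.19 to 5.94 at D26, the lowest against the DLX gate and the highest against the Glut gate, and CXCR4 with XAV939 from -1.68 to -1.52 at D5 and -1.12 to -1.04 at D10. NRP2 at D24 ranged from -2.31 to -0.97. Setting GNRH1-high cells against other cells not past the IRX gate was chosen after seeing the data. No paired analysis was possible because each condition is 1 library. With 1 library a condition, no replicate could be left out.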
